A study of Mus musculus with 8 samples.

Results

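The regions described here were the open-chromatin regions of 5 receptor genes through which melanocytes receive growth and survival signals: Kit, Ednrb, Mc1r, Erbb3 and Met. A region belonged to a gene when its midpoint lay inside the gene (GRCm38 annotation), or within 50 kb of it with that gene holding the nearest end of any protein-coding gene. This rule took 66 of the 148664 regions of the count table: 13 at Kit, 13 at Ednrb, 2 at Mc1r, 10 at Erbb3 and 28 at Met. Of the 66, 32 lay inside their gene and 34 outside. They are numbered along the chromosome within each gene.

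The assay was ATAC-seq, which uses the Tn5 transposase to cut open DNA and add sequencing adapters to it, applied to 8 libraries of 4 mouse melanoma cell lines with 2 libraries per line. Lines 112 and 113 carry the label STAT3 knockout and belong to the genotype written Stat3Δ in the growth protocol; lines 119 and 73 carry the label wild type and belong to the genotype written Stat3fl. All 4 lines share their origin: per the growth protocol, each is a pool of cells grown out of lymph nodes of mice whose skin melanoma began at about 25 to 30 weeks of age, although the sample labels call the line number a clone. The labels name no Cre driver, no tumour-inducing allele and no treatment, and with 2 pools per genotype a difference between genotypes rests on 4 lines. Sample titles also hold p18 (112), p44 (113), p14 (119) and p68 (73), which the labels do not explain. The 2 libraries of a line are called biological replicates, but the labels do not say that they came from separate cultures, so p-values between lines measure the spread between these libraries.

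KIT, ERBB3 and MET are receptor tyrosine kinases, which bind a protein ligand outside the cell and switch on RAS-MAPK and PI3K signalling inside it. KIT binds KIT ligand (stem cell factor) and is needed for melanoblasts to migrate and survive; ERBB3 binds neuregulins and signals in pairs with other ERBB receptors; MET binds hepatocyte growth factor. EDNRB, the endothelin receptor, and MC1R, the receptor for melanocyte-stimulating hormone, are G-protein-coupled receptors. Endothelin signalling through EDNRB maintains melanocyte precursors, and MC1R drives dark pigment synthesis through cyclic AMP and the transcription factor MITF.

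The promoter sequences of the genes are shown first. Line 73 had the lowest level at the start regions of Kit and Ednrb, but not at that of Met. It was also lowest at the Mc1r region 724 bp before the start. A link between the letters and these levels was not tested. Each stretch holds 270 bases, from 250 before the annotated start to the first 20 from it, taken from RefSeq (GRCm38.p6) and written 5′ to 3′ on the strand of the gene. Capitals mark matches, on either strand, to 1 of 6 short motifs: the M-box core CATGTG and the E-box CACGTG, both bound by factors of the MITF type, the STAT motif TTCNNNGAA, the C/EBP motif TTGCNNAA, the SOX motif ACAANG and the AP-1 motif TGANTCA. They were searched over the 300 bases from 250 before to 50 after each start. Gm35116, a gene outside the protein-coding set, is included because its whole window lies inside Ednrb region 5, the region of the Ednrb locus with most CPM. RefSeq windows matched 4 of the 5 receptor genes; that of Erbb3 was not matched.
Kit (chr5:75574737-75575006, plus strand): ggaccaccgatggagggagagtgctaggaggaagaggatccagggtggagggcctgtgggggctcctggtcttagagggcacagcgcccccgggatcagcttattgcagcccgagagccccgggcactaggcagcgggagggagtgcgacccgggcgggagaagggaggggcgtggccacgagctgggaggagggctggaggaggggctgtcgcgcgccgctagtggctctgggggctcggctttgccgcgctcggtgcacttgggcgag
Ednrb (chr14:103843682-103843951, minus strand): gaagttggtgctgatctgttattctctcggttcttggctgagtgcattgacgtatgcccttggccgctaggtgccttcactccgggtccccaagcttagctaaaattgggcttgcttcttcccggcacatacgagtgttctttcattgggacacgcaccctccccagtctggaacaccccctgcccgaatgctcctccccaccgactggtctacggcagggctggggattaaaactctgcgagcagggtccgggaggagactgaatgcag
Mc1r (chr8:123406832-123407101, plus strand): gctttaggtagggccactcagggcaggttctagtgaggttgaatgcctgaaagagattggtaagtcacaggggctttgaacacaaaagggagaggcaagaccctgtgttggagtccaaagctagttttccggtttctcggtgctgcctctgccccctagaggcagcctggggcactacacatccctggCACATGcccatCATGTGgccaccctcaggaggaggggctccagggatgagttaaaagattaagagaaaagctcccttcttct
Met (chr6:17463707-17463976, plus strand): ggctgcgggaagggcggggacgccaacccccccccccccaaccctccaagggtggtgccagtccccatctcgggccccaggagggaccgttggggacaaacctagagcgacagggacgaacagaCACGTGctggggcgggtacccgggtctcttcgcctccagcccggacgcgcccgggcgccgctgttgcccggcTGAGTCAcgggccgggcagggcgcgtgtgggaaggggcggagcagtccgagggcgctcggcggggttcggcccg
Gm35116 (chr14:103778669-103778938, plus strand): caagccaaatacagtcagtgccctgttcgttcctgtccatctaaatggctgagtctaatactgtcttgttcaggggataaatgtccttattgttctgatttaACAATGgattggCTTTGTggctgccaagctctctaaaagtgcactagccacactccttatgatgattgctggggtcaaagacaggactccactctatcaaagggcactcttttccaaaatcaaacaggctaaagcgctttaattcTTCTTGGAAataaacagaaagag

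The windows differed in base composition. The 300-base window of Met was 75.7% G and C with 34 CpG pairs and that of Kit 69.0% with 20, against 58.7% with 15 at Ednrb, 55.0% with 4 at Mc1r and 43.3% with 2 at Gm35116. Kit and Ednrb held none of the 6 motifs in these letters. Mc1r held the M-box core at 2 places, as CACATG starting 62 bases before the start and CATGTG starting 51 bases before it; 14.1% of the windows of 27025 genes hold that motif. Met held CACGTG at 126 bases before the start (7.24% of windows hold this E-box) and TGAGTCA at 54 before (7.93% hold the AP-1 motif). The Gm35116 window held the SOX motif as ACAATG and as CTTTGT, 148 and 136 bases before the start, a motif present in 41.6% of windows, and TTCTTGGAA across the start, from 3 bases before it, a STAT motif that 8.47% of windows hold. The C/EBP motif, in 10.8% of all windows, was in none of the 5. A match describes letters only and shows no binding.

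Total counts in the table ran from 2697546 to 7464336 per library, and the 66 regions held between 1163 and 3900 of them. Levels are given as CPM, counts per 1000000 after TMM scaling of the library sizes, and a count of 0 allowed an upper limit, set at 3 counts, of 0.384 to 0.915 CPM depending on the library (counting error only). The authors' peak calls covered 14 to 34 of the 66 regions per library (21.2% to 51.5%, against 12.6% to 61.1% of all regions), and 56 of the 66 had a peak in at least 1 library. The strongest region near an end of Stat3 itself held 27.8, 37.7, 18.1 and 33.1 CPM in lines 112, 113, 119 and 73, and since the deleted part of the gene is not given in the sources used here, this does not check the knockout. Melanocyte markers were open in part: Sox10 held 21.7, 20.2, 14.1 and 3.4 CPM in lines 112, 113, 119 and 73, and Dct, an enzyme of pigment synthesis, 22.5, 62.0, 3.76 and 0.528, whereas Mitf held 24.5, 35.8, 18.6 and 38.7. Regions of 3 Y-linked genes (Ddx3y, Eif2s3y and Uty) had 0 counts in both knockout lines and 8.49 to 17.3 CPM in both wild-type lines. The region of Xist, on the X chromosome, held 1.98, 4.83, 0.064 and 0 CPM in lines 112, 113, 119 and 73. The genotype therefore cannot be told apart from these differences in Y-linked and Xist signal.

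The first question was how open each receptor locus was in each line. To give 1 level per gene, counts were summed over all its regions, and the 6 pairs of lines were compared in 1 edgeR quasi-likelihood fit of the 8 libraries across 17770 genes. Line 112 differed from line 119 at 3 of the 5 genes (48.7% of all genes did) and line 113 at 3 (58.4%), line 112 from line 113 at 2 (39.9%), and each of these 3 lines from line 73 at all 5 (51.5%, 51.9% and 57% for lines 112, 113 and 119). All 5 receptor sums were lowest in line 73, below each of the other 3 lines in that fit (adjusted p under 0.05), a pattern that 12.6% of all genes showed. For Met against line 112 it was lost once the level of the surrounding 10 Mb was set as an offset (0.17, adjusted p = 0.199). Single regions did not all follow the sums. Line 119 had the lowest mean at 6 of 10 tested Erbb3 regions and 10 of 27 at Met, line 73 at 3 and 9 (29.5% and 30.8% of all regions). Line 119 was higher than line 73 at 2 and lower at 5 Erbb3 regions, and at 7 and 10 Met regions (27.5% and 29.4% of all). Line 113 was above each of the other lines at Kit and at Ednrb, as were 5.70% of all genes. The wild-type lines were thus far from alike at these genes. In libraries of whole populations, fewer cells with an open locus and a less open locus per cell cannot be told apart.

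The Kit sum was 65.8 and 74.7 CPM in the 2 libraries of line 112, 159.0 and 117.0 for line 113, 50.3 and 50.0 for line 119, and 24.0 and 32.0 for line 73. All 4 knockout libraries lay above all 4 wild-type libraries, as for 10.5% of all genes, and the order 113, 112, 119, 73 held at every step. Line 113 exceeded line 112 by 0.98 ± 0.14 on the log2 scale (SE; adjusted p = 9.21e-06), line 112 exceeded line 119 by 0.48 ± 0.15 (adjusted p = 0.0117), and line 119 exceeded line 73 by 0.85 ± 0.17 (adjusted p = 1.36e-04). The step from 112 to 119 no longer passed when either line 119 library was left out (adjusted p = 0.0574 and 0.0512). At Kit and at Erbb3, but at none of the other 3 genes, the knockout line was higher in each of its 4 pairings with a wild-type line, as was the case for 5.16% of all genes. With the level of the surrounding 10 Mb as an offset Erbb3 no longer met this (113 against 119: -0.02, adjusted p = 0.877).

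Ednrb gave the widest range. Its sum was 88.6 and 89.0 CPM for line 112, 153.0 and 147.0 for line 113, 111.0 and 103.0 for line 119, and only 7.79 and 5.82 for line 73. Line 119 exceeded line 73 by 3.96 ± 0.17 on the log2 scale (adjusted p = 1.70e-15), line 112 exceeded line 73 by 3.69 ± 0.17 and line 113 exceeded it by 4.45 ± 0.16. The wild-type line 119 lay between the 2 knockout lines: it was below line 113 by 0.49 ± 0.11 (adjusted p = 5.39e-04), and its difference from line 112 missed the threshold (log2 difference of 112 minus 119 -0.27 ± 0.12, adjusted p = 0.0571, and 0.0434 to 0.0484 when a line 73 library was left out or DESeq2 size factors were used).

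At Mc1r the sum, over 2 regions, was 57.7 and 58.9 CPM for line 112, 58.4 and 61.5 for line 113, 52.1 and 57.0 for line 119, and 19.9 and 18 for line 73. Line 73 stood apart, below line 119 by 1.52 ± 0.14 on the log2 scale (adjusted p = 2.52e-09), and the other 3 lines did not differ from each other beyond their spread (adjusted p = 0.545, 0.333 and 0.822).

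For Erbb3 the sum was 179.0 and 134.0 CPM for line 112, 134.0 and 146.0 for line 113, 93.2 and 96.4 for line 119, and 63.8 and 67.5 for line 73. The knockout libraries again lay above the wild-type ones, as they did at Kit and Mc1r and at 10.5% of all genes. Line 113 exceeded line 119 by 0.56 ± 0.12 (adjusted p = 3.90e-04) and line 119 exceeded line 73 by 0.53 ± 0.13 (adjusted p = 0.0013), whereas the difference between lines 112 and 113 missed the threshold (0.17 ± 0.12, adjusted p = 0.27). That difference passed with the window offset (0.38, adjusted p = 0.0135) and without the second library of line 112 (0.36, adjusted p = 0.0189).

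Met gave the narrowest range, with 287.0 and 257.0 CPM for line 112, 259.0 and 215.0 for line 113, 220.0 and 206.0 for line 119, and 158.0 and 159.0 for line 73. Libraries of lines 113 and 119 overlapped. Line 119 exceeded line 73 by 0.43 ± 0.11 (adjusted p = 0.00163) and line 112 exceeded line 119 by 0.36 ± 0.11 (adjusted p = 0.00734, and 0.0921 without the second library of line 119). The window offset turned this difference to -0.43 (adjusted p = 0.00179).

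**Figure D1:**
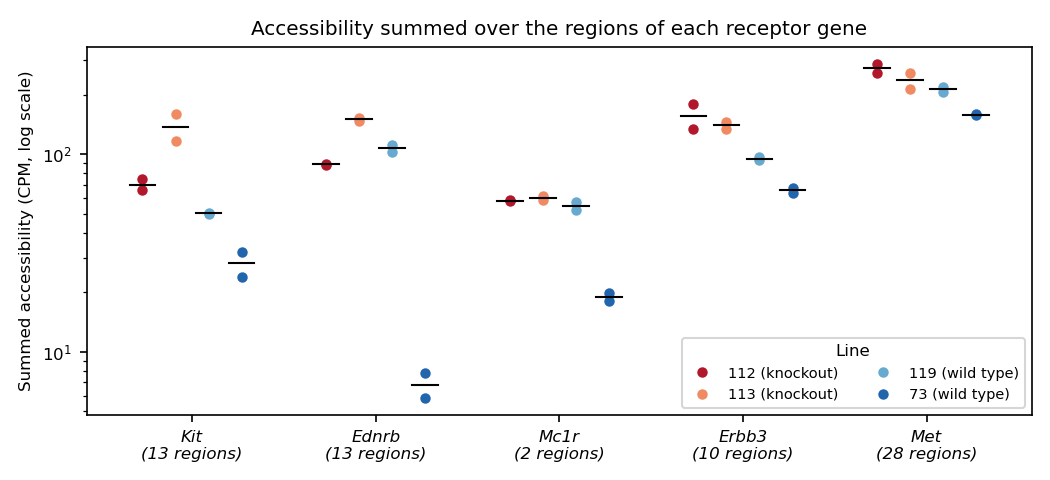
Summed accessibility of each receptor gene by line, in CPM on a log axis; points are the 2 libraries of a line and the bar is their mean. Line 73 is lowest at all 5 genes, from 7.79 and 5.82 CPM at Ednrb to 158.0 and 159.0 at Met, and the wild-type line 119 lies above line 112 at Ednrb.

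The level of the surrounding chromosome also varied between the lines. In the 10 Mb window around Met, the 394 other regions had a median log2 ratio to the mean of the lines of 0.54 in line 112, against -0.19, -0.23 and -0.32 in lines 113, 119 and 73. Around Erbb3 the ratio was 0.47 in line 73 and -0.36 in line 119, around Ednrb -0.36 in line 73 and 0.26 in line 119, around Mc1r -0.22 in line 119, and around Kit within 0.12 of 0 in all 4 lines. In the fit of the gene sums the offset was the median log2 ratio of the gene sums in the window, not these region medians. With that offset, Met in line 112 was lower than in line 119 and than in line 113 (-0.51, adjusted p = 9.63e-04). Its difference from line 73 shrank to 0.17 (adjusted p = 0.199). Mc1r in line 112 was then lower than in line 119 (-0.35, adjusted p = 0.0153), its sign against line 119 turned in line 113 too (-0.20, adjusted p = 0.125), and the difference at Erbb3 between lines 113 and 119 fell to -0.02 (adjusted p = 0.877). The shortfall of line 73 was as large or larger with the offset at Kit, Mc1r and Erbb3 (119 minus 73: 1.07, 2.02 and 1.44) and nearly as large at Ednrb (3.81). The median over all genes moved with the offset too, for 119 minus 73 from -0.03 to 0.18. For lines 112 and 113 minus line 119 that median became -0.16 and -0.15. Copy number was not measured, and its part in these levels was not tested.

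Fibroblast marker regions moved with line 73. The 4 of 5 fibroblast markers with a region near a gene end summed to 69.9 CPM in line 73 against 7.09 to 15.9 in the other lines, with Col1a2 at 31.9 CPM against 0.591 to 3.51. The leukocyte list (4 of 7 with a region) summed to 19.8 CPM in line 73 and 7.95 to 13.8 elsewhere, none of 3 endothelial markers had a region, and the 2 Schwann cell markers summed to 19.4, 32.2, 20 and 27.2 CPM in lines 112, 113, 119 and 73. The 7 melanocyte markers summed to 132.0, 224.0, 71.3 and 120.0 CPM in the same order. In line 73 that sum rested on Mitf (38.7) and Pmel (73.8, at a region shared with a neighbouring gene), and the other 5 held 0.253 to 3.4 CPM there, with Mlana at 0.253 against 10.3 and Tyr at 0.93 against 9.32 in line 112. Line 119 was low too at the marker regions of Mlana (0.738), Tyr (0.699) and Tyrp1 (1.01, against 2.8 in line 73). These are single regions near a gene end. Summed over its 9 regions, Tyr held 85.1, 102.0, 67.2 and 6.51 CPM in lines 112, 113, 119 and 73, so line 119 was not low across that locus. Sox10 and Dct were higher in line 119 (14.1 and 3.76) than in line 73 (3.4 and 0.528). The part of these marker differences in the low receptor levels of line 73 was not tested.

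The second question was whether the receptor regions differed by genotype. With the line as the unit, 2 against 2, the edgeR quasi-likelihood test called 0 of the 63 receptor regions that passed the count filter (0% of 140329 regions in all), with a smallest adjusted p of 0.144. At an unadjusted p under 0.05 it gave 21 of 63, against 16.9% of all regions, and the Wald test of DESeq2 called 7 of the 45 to which it gave an adjusted p, against 7.43% of all regions with one. The fold changes leaned one way: 48 of 63 were above 0, and their median (log2, knockout relative to wild type) was 1.29 against -0.09 over all regions tested. For the gene sums, none of the 5 passed in edgeR or in DESeq2: the log2 fold change was 1.43 ± 0.44 at Kit (adjusted p = 0.327), 1.07 ± 1.14 at Ednrb (0.891), 0.69 ± 0.48 at Mc1r (0.769), 0.91 ± 0.31 at Erbb3 (0.344) and 0.47 ± 0.30 at Met (0.707), and Kit and Erbb3 had unadjusted p-values of 0.0131 and 0.0167.

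Pairs of lines, which compare those lines and not the genotype, were called often at all genes. Line 112 was higher than line 119 at 28 and lower at 6 of 63 receptor regions (54.0% called, against 45.8% of all regions, 22.2% higher and 23.6% lower). It was higher than line 73 at 42 and lower at 8 (79.4% against 49.9%, 23.8% higher and 26.2% lower). Line 113 was higher than line 119 at 35 and lower at 9 (69.8% against 59%, 30.2% higher and 28.8% lower). It was higher than line 73 at 34 and lower at 11 (71.4% against 52.2%, 25.8% higher and 26.4% lower). Within a genotype, line 112 was higher than line 113 at 6 and lower at 15 (33.3% against 23.9%, 8.14% higher and 15.8% lower). Line 119 was higher than line 73 at 23 and lower at 17 (63.5% against 56.9%, 27.5% higher and 29.4% lower). With the window offset the higher and lower counts became 22 and 12 for 112 against 119, 26 and 13 for 112 against 73, and 3 and 26 for 112 against 113. All regions moved the same way in these pairs, to 15.8% higher and 26.1% lower, 17.4% and 31.7%, and 2.73% and 21.9%. At Met, of 27 tested regions 14 were higher and 4 lower in line 112 than in line 119, and 9 and 9 with the offset.

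**Figure D2:**
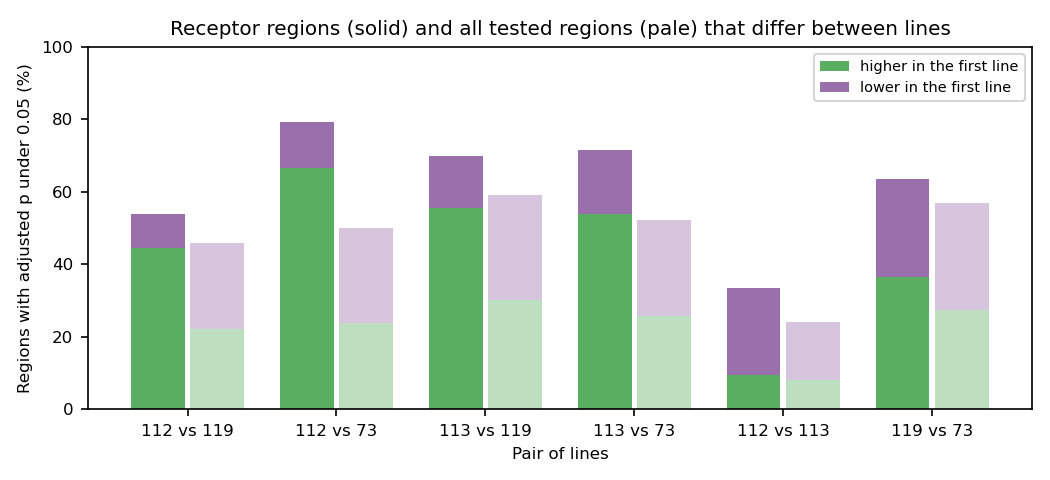
Receptor regions, of the 63 tested, that were higher or lower in the first line of each of the 6 pairs (adjusted p under 0.05, edgeR). Higher calls outnumber lower ones in each of the 4 pairings across genotypes, most against line 73 for line 112 (42 against 8).

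Regions that divided the lines as the labels do were higher in the knockout line, or lower in it, in each of the 4 pairings across genotypes (adjusted p under 0.05); the pairings share lines and are no independent tests. Of the 63 regions, 16 were higher in this sense (25.4%, against 7.63% of all regions) and 2 were lower (3.17% against 7.42%). The 16 were 3 at Kit, 3 at Ednrb, 1 at Mc1r, 2 at Erbb3 and 7 at Met, and both lower ones were at Met. With the window offset 9 were higher and 3 lower (5.91% and 8.23% of all regions): of the regions described here, Kit regions 4, 10 and 13, Ednrb regions 12 and 13, Erbb3 region 6 and Met regions 14, 15 and 22 still passed in the same direction, and Ednrb region 1, Mc1r region 1, Erbb3 region 3 and Met regions 3, 8, 19 and 26 did not. Line 73 alone was below the 3 other lines at 20 regions (31.7%, against 10.2%), 6 of them at Ednrb, 5 each at Kit and Met and 2 each at Mc1r and Erbb3, and line 113 alone was above the others at 11 (17.5%, against 7.35%). Line 119 was above the 3 others at 2 regions and line 112 at 3 (11% and 1.74% of all regions), and line 73 at 6 (13.2%). Line 119 was below the 3 others at 6 regions (4.84%), line 113 at 3 (2.62%) and line 112 at 0 (1.31%). In terms of means, line 73 was lowest at 34 regions and line 119 at 18 (30.8% and 29.5% of all regions), and line 113 was highest at 31 and line 73 at 13 (26.6% and 31.3%). All knockout libraries lay above all wild-type libraries at 21 regions (14% of all) and below them at 3 (12.6%).

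**Figure D3:**
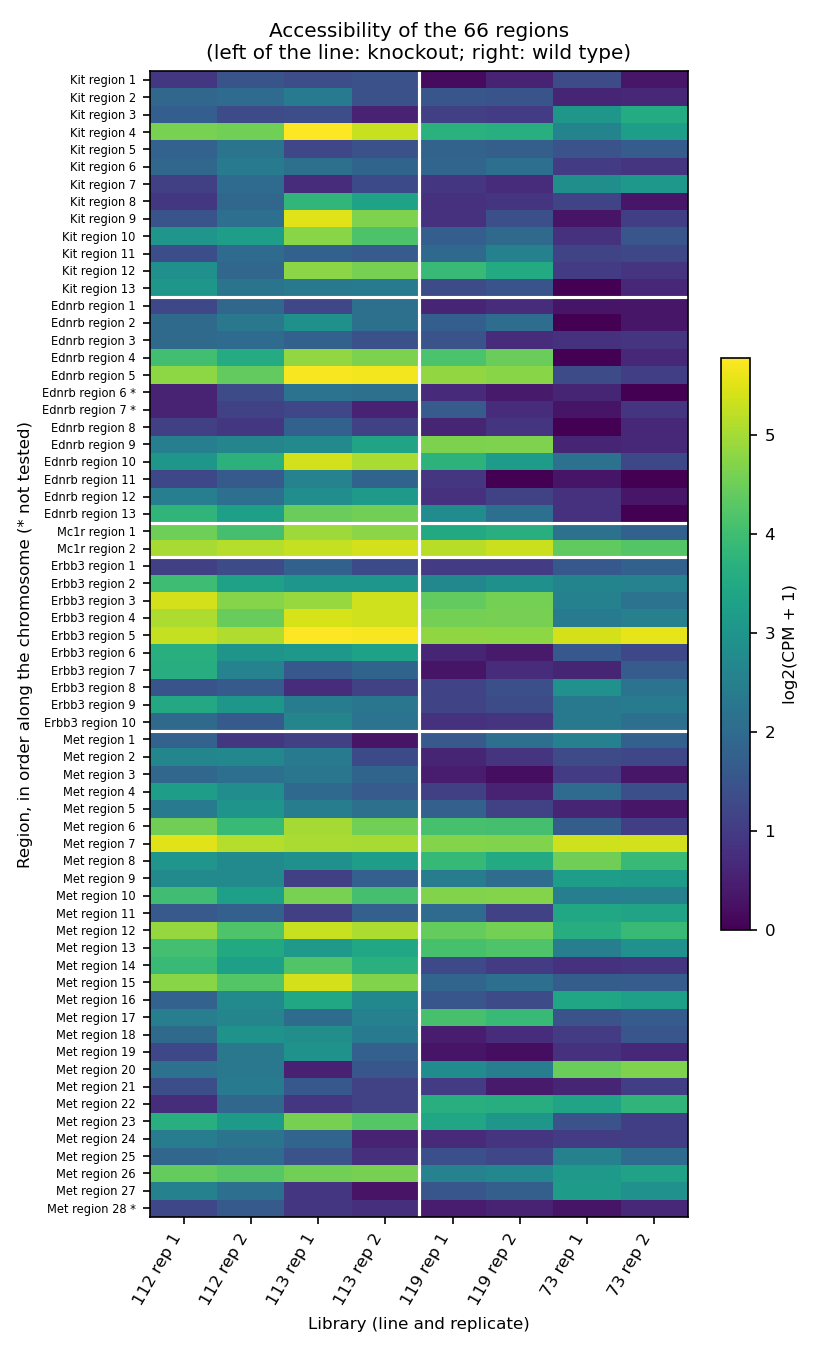
Accessibility of all 66 regions (rows, in chromosome order within each gene) in the 8 libraries (columns), on a log2 scale of CPM. At Ednrb the lowest values stand in the columns of line 73, while Met shows rows high in the knockout lines, rows high in line 73 and rows high in line 119.

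At Kit, the region over the start (region 4, chr5:75574714-75576130, which holds the whole promoter window printed above) had 23.4 and 22.3 CPM for line 112, 53.9 and 38.1 for line 113, 11.9 and 11.5 for line 119, and 5.06 and 8.26 for line 73. The knockout libraries all lay above the wild-type ones, and the authors called a peak there in all libraries but those of line 73. Line 112 exceeded line 119 by 0.96 ± 0.23 on the log2 scale (adjusted p = 3.80e-04) and line 113 exceeded it by 1.97 ± 0.21 (adjusted p = 7.89e-12). The genotype fold change was 1.89 ± 0.71 (adjusted p = 0.204).

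The region of Kit that varied most was not at the start. Region 9 (chr5:75653405-75653941), inside the gene 3049 bp from its far end, had 44.3 and 24.4 CPM in line 113 but 1.84 and 3.35 for line 112, 0.768 and 1.67 for line 119, and 0.253 and 1.1 for line 73. It was high in line 113, the sole line with a peak call there. Among the 63 receptor regions it had the smallest p of line 113 against line 119 (log2 difference 4.85 ± 0.35, adjusted p = 3.87e-17) and of line 112 against line 113 (-3.77 ± 0.35, adjusted p = 3.58e-12), and it is the region whose genotype fold change (4.30 ± 1.16, adjusted p = 0.146) passed when the first library of line 112 was left out (adjusted p = 0.0344).

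Beyond the far end of Kit, region 10 (chr5:75661857-75662829, 5621 bp past the gene) had 7.11 and 8.23 CPM for line 112, 25.8 and 17.0 for line 113, 2.3 and 3.01 for line 119, and 0.759 and 1.93 for line 73, higher in both knockout lines than in either wild-type line. Region 12 (chr5:75683913-75684864) did not follow the labels: it had 26.5 and 23.0 CPM in line 113 and 14 and 10.5 in the wild-type line 119, but 6.42 and 2.74 in line 112 and 1.01 and 0.826 in line 73. Region 13 (chr5:75706317-75706860) was weaker, with 7.34 and 3.66, 4.05 and 4.31, 1.54 and 1.84, and 0 and 0.55 CPM in lines 112, 113, 119 and 73, again divided by label. Line 73 was not lowest everywhere at Kit: regions 3 and 7, named here after their values were seen, had mean levels of 9.03 and 6.88 CPM in line 73 and at most 2.1 in the other lines.

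At Ednrb, the region over the start (region 10, chr14:103843293-103844623) had 7.34 and 12.2 CPM for line 112, 40.5 and 31.9 for line 113, 12.4 and 8.03 for line 119, and 3.54 and 1.38 for line 73. Here line 113 was high and lines 112 and 119 did not differ beyond their spread (log2 difference -0.12 ± 0.29, adjusted p = 0.756), so the start region did not divide the lines by label.

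The Ednrb region with most CPM lay 35570 bp past the far end of the gene, 64656 bp from its start. Region 5 (chr14:103778476-103779614), which contains the whole Gm35116 window printed above, had 26.6 and 20.1 CPM for line 112, 51.7 and 49.9 for line 113, 27.9 and 26.1 for line 119, and 1.52 and 1.1 for line 73. It gave the smallest p of the 63 regions in all 3 comparisons with line 73: log2 differences of 4.14 ± 0.35 for line 112, 5.24 ± 0.31 for line 113 and 4.33 ± 0.33 for line 119 (adjusted p = 1.22e-14, 1.89e-20 and 2.20e-16). Its neighbour, region 4 (chr14:103777886-103778455), had 15.4 and 10.7, 27.6 and 24.0, and 16.6 and 20.9 CPM in lines 112, 113 and 119, and 0 and 0.55 in line 73. A count of 0 in the first line 73 library allows up to 0.759 CPM. In each of the 11 tested Ednrb regions line 73 had the lowest mean, which held for 30.8% of all regions.

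In total 3 regions of Ednrb divided the lines by label, all outside the gene. Region 13 (chr14:103891519-103892081, with its middle at -48099 bp relative to the start) had 12.8 and 8.54 CPM for line 112, 20.9 and 22.5 for line 113, 6.02 and 3.35 for line 119, and 0.759 and 0 for line 73. Region 12 (chr14:103865774-103866502) had 4.59 and 3.35, 6.07 and 7.67, 0.768 and 1.17, and 0.759 and 0.275 CPM in the same order. Region 1 (chr14:103766106-103766606), 48259 bp from the gene end, was near the lower limit of detection at 1.35 to 3.36 CPM in the knockout and 0.253 to 0.669 in the wild-type libraries. In contrast, region 9 (chr14:103840311-103840960), inside the gene 3066 bp from the start and named after its values were seen, was highest in the wild-type line 119, with a mean of 24.1 CPM against 4.89, 7.60 and 0.528 in lines 112, 113 and 73.

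**Figure D4:**
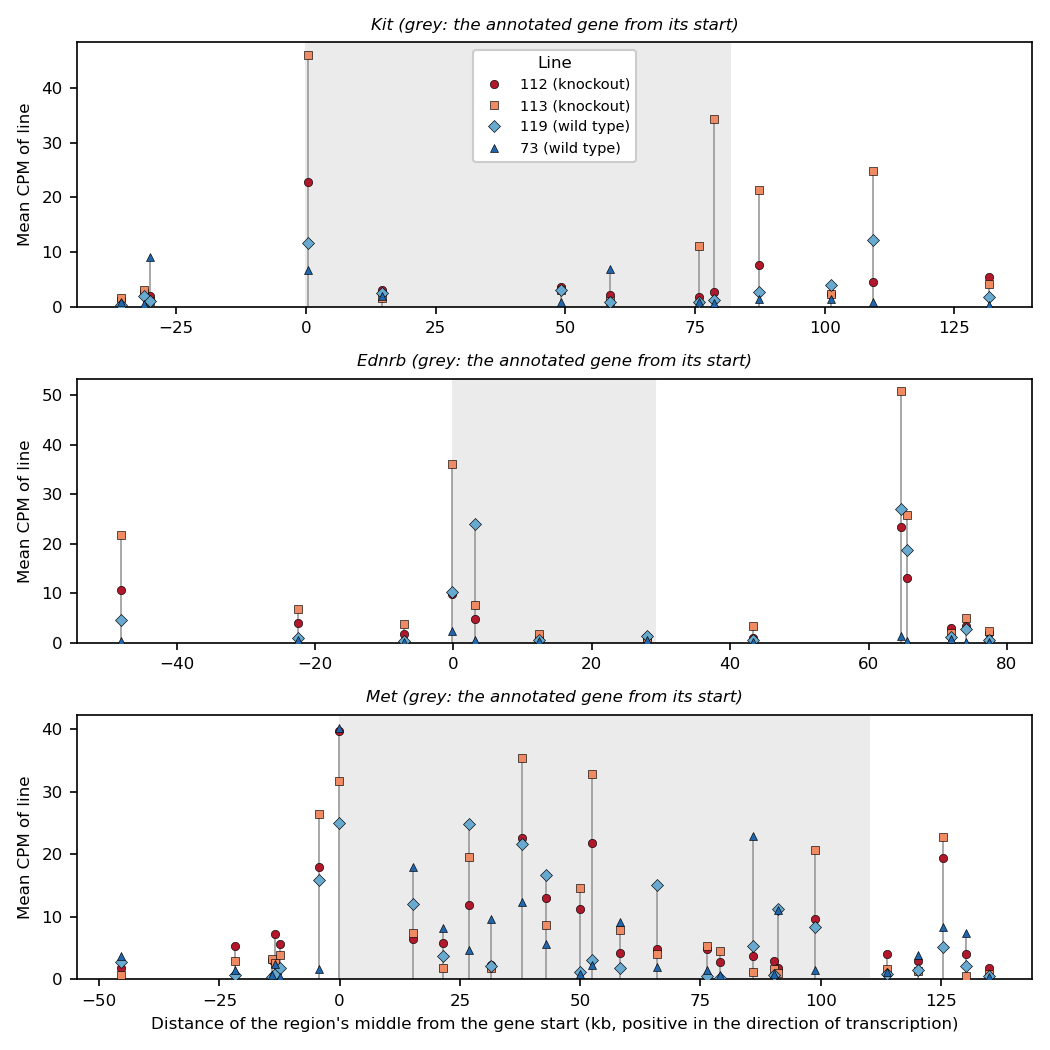
Mean CPM of each line (symbols) at every region of Kit, Ednrb and Met against the distance of the region's middle from the annotated gene start in kb; grey shading marks the gene and thin stems join a region's symbols to 0. The Kit region near 79 kb is high in line 113 alone, line 73 is lowest along Ednrb, and the paired Met regions near 50 kb are high in both knockout lines.

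At Mc1r, region 1 (chr8:123406057-123406659) lay 724 bp before the start and ended 172 bp before the printed window with its 2 M-box cores. It had 21.8 and 15.9 CPM for line 112, 29.4 and 26.4 for line 113, 10.4 and 11.4 for line 119, and 3.54 and 2.48 for line 73. Both knockout lines were above both wild-type lines, by 0.81 ± 0.24 for the closest pair, 112 and 119 (adjusted p = 0.00457; 0.38 and 0.275 with the window offset), and the genotype fold change was 1.73 ± 0.81 (adjusted p = 0.289). Region 2 (chr8:123409339-123410474), inside the gene, had a peak in all 8 libraries and varied less: 31.7 and 34.2 CPM for line 112, 37.5 and 41.0 for line 113, 34.7 and 38.8 for line 119, and 19.7 and 17.9 for line 73. Its genotype fold change was 0.36 ± 0.62 (adjusted p = 0.852).

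Erbb3 showed the same split between a shared and a variable part. Region 5 (chr10:128589509-128590729), over the gene end with the higher coordinate, had a peak in all 8 libraries and in line 73 lay between lines 112 and 113: 37.6 and 33.2 CPM for line 112, 53.5 and 51.5 for line 113, 27.1 and 26.6 for line 119, and 41.2 and 46.2 for line 73. A short way inside the gene, region 3 (chr10:128586419-128587050) had 41.5 and 25.6, 28.8 and 39.8, and 20.1 and 22.6 CPM in lines 112, 113 and 119, and 4.81 and 3.58 in line 73. Region 4 (chr10:128587870-128588470) had 32.8 and 20.7, 41.8 and 40.0, 22.8 and 23.1, and 4.3 and 4.68 CPM in the same order. Both inner regions were thus low in line 73 while the gene-end region was not, and region 3 was higher in each knockout line than in either wild-type line.

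Erbb3 region 6 (chr10:128592761-128593346, 3418 bp beyond the gene) divided the lines by label without a peak call in any library. It had 11.5 and 7.01 CPM for line 112, 7.42 and 8.87 for line 113, 0.512 and 0.335 for line 119, and 2.02 and 1.38 for line 73. Line 112 exceeded line 119 by 4.36 ± 0.47 on the log2 scale (adjusted p = 3.50e-11), and here line 119, not line 73, was lowest. The genotype fold change was 3.08 ± 0.97 (adjusted p = 0.159).

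At Met, line 73 was not low at the start. Region 7 (chr6:17463549-17464295), which holds the printed window with its E-box and AP-1 motif, had a peak in all 8 libraries, with 45.2 and 34.2 CPM for line 112, 32.1 and 31.4 for line 113, 25.2 and 24.8 for line 119, and 40.0 and 40.7 for line 73. Its genotype fold change was 0.14 ± 0.60 (adjusted p = 0.954) and turned to -0.44 with the window offset and to -0.01 without the first library of line 112. By contrast region 6 (chr6:17459440-17460021), with its middle at -4227 bp relative to the start, had 22.0 and 14, 30.8 and 22.3, and 16 and 15.9 CPM in lines 112, 113 and 119 but 2.28 and 1.1 in line 73. Region 12 (chr6:17501405-17502170), inside the gene with a peak in every library, ran from 11.1 CPM in line 73 to 38.2 in line 113.

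The lowest genotype p-values of all receptor regions were at 2 neighbouring regions inside Met. Region 15 (chr6:17515798-17516970) had 25.9 and 17.7 CPM for line 112, 41.1 and 24.7 for line 113, 2.69 and 3.35 for line 119, and 2.28 and 2.2 for line 73. Region 14 (chr6:17513649-17514192) had 14 and 8.54, 17.5 and 11.7, 1.41 and 1.0, and 0.759 and 0.826 CPM in the same order. Neither overlapped between genotypes, and at region 15 the differences within a genotype missed the threshold (adjusted p = 0.0616 for 112 against 113 and 0.465 for 119 against 73). With the window offset region 15 was lower in line 112 than in line 113 (-1.58, adjusted p = 2.12e-05) and region 14 too (-1.34, adjusted p = 0.000366). At region 14 peaks were called in all 4 knockout libraries and in no wild-type library; at region 15 they were called in 1 library of line 112, both of line 113 and 1 of line 119. The genotype fold change was 3.39 ± 0.81 at region 15 and 3.65 ± 0.93 at region 14, both with an adjusted p of 0.144 in edgeR and of 0.00228 and 0.00242 in DESeq2.

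Met also held the regions with the opposite direction. Region 22 (chr6:17554695-17555264) had 0.688 and 2.74 CPM for line 112, 0.899 and 1.2 for line 113, 11.4 and 11.2 for line 119, and 9.36 and 12.7 for line 73. Peaks were called there in the wild-type libraries alone, and the genotype fold change was -3.09 ± 0.91 (adjusted p = 0.15, and 0.00881 in DESeq2). The other region lower in the knockout lines, region 8 (chr6:17478776-17479694), named after its values were seen, had means of 6.45 and 7.45 CPM in lines 112 and 113 and 12.1 and 18 in lines 119 and 73. Among the further Met regions higher in the knockout lines, region 26 (chr6:17588472-17590147, past the gene), named after its values were seen, had 20.4 and 18.3 CPM for line 112, 22.5 and 23.0 for line 113, 4.87 and 5.52 for line 119, and 7.59 and 9.08 for line 73. Its difference between lines 112 and 73 was lost with the window offset (0.07, adjusted p = 0.871). Region 3 (chr6:17449653-17450153) held 2.64 to 3.82 CPM in the knockout and 0.167 to 1.01 in the wild-type libraries, and region 19 (chr6:17542770-17543355) held 1.38 to 6.74 and 0.167 to 0.759. Single-line patterns were also present, with region 20 at a mean of 23.0 CPM in line 73 and 1.18 to 5.27 elsewhere, again noted after the values were seen. With the window offset region 20 was lower in the knockout line in all 4 pairings across genotypes (log2 differences from -4.45 to -1.41), as were 8.23% of all regions.

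At Kit, Ednrb and Met the rule's limit of 50 kb decided which outer regions were taken. At Kit the outermost region taken, 49866 bp away, had line means of 5.5, 4.18, 1.69 and 0.275 CPM in lines 112, 113, 119 and 73, and the next one beyond, at 54600 bp, 5.16, 7.80, 7.03 and 1.33. At Ednrb the region at 48259 bp had 2.06, 2.35, 0.591 and 0.264, and the one at 50649 bp 2.75, 6.51, 3.93 and 0.275. At Met the region at 44905 bp had 1.72, 0.682, 2.7 and 3.64 and that at 50416 bp 8.36, 10.9, 6.07 and 6.85.

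Genes with the most similar profiles over the 8 libraries were found among 12330 protein-coding genes with at least 3 regions, by the root mean square difference of the centred log2 CPM of the gene sum. Nearest to Kit were Adgrf2 (0.16), Zic5 and Robo1 (both 0.19). Close to Ednrb were Gm11232 and Tyr, the tyrosinase gene of pigment synthesis (both 0.32). Mc1r was matched most closely by Med27 (0.06), Gm45915 (0.07) and Lims2 (0.08), Erbb3 by Secisbp2l, Med4 and Papln (all 0.08), and Met by Rgcc, Plekha7 and Lratd2 (all 0.08). Genes with a narrow range between lines match closely more easily, and the libraries, which share 4 lines, are 8 points in all.

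Several ligand genes of these receptors were lower in the knockout lines. Among the genes of the pathway, taken as gene sums, 11 were ligands or antagonists, of which 9 had regions (Edn3 and Asip had none). In each of the 4 pairings across genotypes 5 of the 9 were lower in the knockout lines and 1 was higher, against 7.22% and 5.16% of all genes, and the median log2 fold change was -0.58 (0.01 over all genes). None passed the genotype test, of 46 pathway genes tested (0% of all genes). Hgf, which encodes the MET ligand, had means of 7.74 and 5.27 CPM in lines 112 and 113 and 42.3 and 37.0 in lines 119 and 73, a genotype fold change of -2.67 ± 0.43 (adjusted p = 0.099). Nrg3, a neuregulin gene, had 23.5, 9.63, 55.7 and 35.0 CPM in lines 112, 113, 119 and 73. Nrg4 was the ligand gene higher in the knockout lines, at 19.2, 19.8, 10.8 and 6.76. The 3 other lower ones, outside the rule for named genes, were Nrg1, Edn1 and Kitl, which encodes the KIT ligand, at 83.8, 84.6, 139.0 and 115.0 CPM.

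The other pathway lists were counted in the same way. Of 8 related receptors 2 were lower in the knockout lines and 0 higher: Egfr, an ERBB family receptor, had 71.5, 18.5, 139.0 and 140.0 CPM in lines 112, 113, 119 and 73, and Flt3, a kinase related to KIT, had 20.7, 10.4, 64.7 and 32.5. Of 24 signal transducers 2 were higher, among them Mapk3, which encodes ERK1, at 63.1, 66.9, 50.4 and 41.4 CPM in lines 112, 113, 119 and 73, and 1, Gnas, was lower. Of 5 attenuators 1, Lrig1, was lower and 0 higher; these 2 fall outside the rule for named genes. Over all 4 lists 3 of 46 genes were higher and 9 lower, against 5.16% and 7.22% of all genes.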

How the data were processed

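The deposited files, made by the authors, were 1 table with raw counts of all regions in the 8 libraries and 1 peak list per library. Per the submitters' processing notes, Bowtie2 2.2.4, Picard 1.118 and MACS2 2.1.1.20160309 were used and the build was mm10 (GRCm38). How duplicates, fragments and the transposase offset were treated in the counts is not given in the sources used here. In the deposited peak lists each peak carries a score, the −log10 of its p and q values and its ratio to background (fold); peaks were called per library. The count table held 0 columns of other samples. Region starts were counted from 0 in the table and are printed from 1.

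Regions were filtered with filterByExpr on line sums (minimum count 10, minimum total 15), which kept 140329 of 148664 regions (63 of the 66; Ednrb regions 6 and 7 and Met region 28 fell out) and 17770 of 17873 genes. Normalization was TMM. The genotype was tested with edgeR 4.0.16 (R 4.3.3; glmQLFit with robust estimation, glmQLFTest, two-sided) on counts summed per line, and the 6 pairs of lines in a fit of the 8 libraries, with Benjamini-Hochberg adjustment over all features and a threshold of 0.05. The standard error is the log2 fold change divided by the square root of F. SDs of a line rest on 2 libraries each, and standard errors between lines on a spread estimated from all 8 libraries together. The search for similar profiles added a prior count of 2 to log2 CPM. The scripts were tested on simulated data. Replicates had a biological coefficient of variation of 0.117 over regions.

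Named were, per gene, the region at its start or end and the next 2 by level, the region with the smallest p in each pair, the regions divided by label (up to 5 per gene), the 3 most similar genes, and up to 4 pathway genes divided by label in each direction; 2 genes that this rule names are not reported here. The receptors and the lists were chosen with earlier results of these data known. Alternatives were the Wald test of DESeq2 1.42.0, its size factors in edgeR, no filter, a regional offset over 10 Mb windows, the replicate number as a block, each library left out, regions with a peak, regions within 10 kb, a threshold of 0.01 and libraries as units.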

Additional observations from a re-analysis of the deposited data

How the results depend on the processing

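Of the 0 receptor regions called for the genotype, the DESeq2 Wald test gave 7 (18 of 63 had no adjusted p), libraries as units 23 (22.7% of all regions), and leaving out 1 library 0 to 1, the 1 without the first library of line 112. Libraries as units ignore that the lines differ within a genotype; they called 2 of the 5 gene sums, Kit and Erbb3, and 13.2% of all genes. Within 10 kb of the genes there are fewer regions. The counts of called regions there were 20 for 112 against 119, 33 for 112 against 73 and 27 for 113 against 119. They were 29 for 113 against 73, 24 for 119 against 73 and 11 divided by label. In the same order, the counts over all 63 regions were 34, 50, 44, 45, 40 and 18. Shares of the regions within 10 kb are not given, so these counts do not show whether the share called rose or fell. The 21 regions called between lines 112 and 113 became 12 with DESeq2, where 21 had no adjusted p. Over all regions with an adjusted p, that share was 18.6% with DESeq2 and 23.9% in the main fit. With 1 library left out the count was 13 to 20, the 13 without the first library of line 113. Without that library 17507 of all 140329 regions were called, against 33567 in the main fit. The 18 regions divided by label became 9 with DESeq2, in which a region with no adjusted p in a pair cannot pass. Over all regions the share divided by label fell from 15.1% to 8.66%.

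For gene sums, the 3 called between lines 112 and 119 became 1 to 4 with 1 library left out (1 without the second library of line 119). Without that library 6766 of 17770 genes were called, against 8658 in the main fit. The 2 called between lines 112 and 113 became 4 with the regional offset, while the share of all genes went from 39.9% to 32.8%. Signs turned at the Met start region (genotype -0.44 with the offset, -0.01 to 0.23 with 1 library left out), at Mc1r (112 against 119 -0.35, 113 against 119 -0.20), at Erbb3 (113 against 119 -0.02 with the offset; 112 against 113 -0.09 to 0.36 with 1 library left out) and at Met (112 against 119 -0.43, 112 against 113 -0.51). The cause was not tested. Counting each named value once per alternative, 847 kept their direction and side of the threshold, 29 passed it newly, 4 lost it, 8 turned and 7 shares of regions with a peak moved.

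Taken over all 140329 regions, libraries with the same replicate number did not deviate together (correlations from -0.0368 to 0.00388). A pairing limited to part of the regions was not tested. With the replicate block, 33, 50, 43, 45, 21 and 38 regions were called for 112 against 119, 112 against 73, 113 against 119, 113 against 73, 112 against 113 and 119 against 73, and 19 were divided by label. Of all 140329 regions, 63214, 69276, 81861, 72642, 32886 and 78957 were called in the same order, and 20756 were divided by label. Regions near 3 counts per library, such as Ednrb region 1 in line 73, cannot show a further decrease at this depth.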
